A study of Mus musculus with 16 samples.

Results

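The 100 genes described here lie around Avil, the gene whose promoter drives Cre recombinase in Avil-ChR2 mice, and in the cortex of newborn pups 2 of them differed between genotypes after adjustment over all genes. Avil itself was 37.1 times as high in Avil-ChR2 as in ChR2-flfl cortices, and Mars, a neighbour 311.7 kb away, was 9.78% lower, a call that held in 14 of 28 alternative analyses. The members are the entries of chromosome 10 of GRCm38 whose start lies between 125 and 129 Mb and which had more than 0.03125 normalized reads in at least 12 of 16 pups, without Tac2. Normalized reads are CPM values (read counts relative to the library size) scaled by the trimmed mean of M values (TMM). The window holds 147 entries of the deposited table and 46 of them did not reach this limit, so that without Tac2 the members are 100 of the 21183 genes that passed it in all.

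RNA was taken on postnatal day 7 (P7) from the cortex of 8 Avil-ChR2 and 8 ChR2-flfl pups of the C57BL6 strain, and every pup had been kept under blue light for 1 h a day from P1 to P5. All pups carry a construct in the Rosa26 locus in which a floxed stop precedes a fusion of channelrhodopsin-2, a light-gated cation channel, with the red protein tdTomato. Avil-ChR2 pups also carry Cre under the Avil promoter, inherited from the father, whereas ChR2-flfl pups are Cre-negative litter mates. How the Avil-Cre allele was built is not given in the sources used here. Both genotypes received light and no pup without light was analysed here, so that the driver allele and the light response it confers cannot be told apart.

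Advillin, the product of Avil, is an actin-binding protein of the gelsolin and villin family, and its gene is best known for its expression in sensory neurons of the dorsal root and trigeminal ganglia. A chromosome segment around a driver allele is inherited together with it. If the driver lies at the Avil gene, the genes described here are its neighbours, and if it was inserted elsewhere in the genome they are not. The window around Avil is rich in genes of general function, among them an aminoacyl-tRNA synthetase, a tRNA methyltransferase, the cell cycle kinases Cdk4 and Cdk2, the neuronal kinesin Kif5a and a cluster of retinol dehydrogenases. Of the 100 members, 97 had a RefSeq entry, 87 of them protein coding and 10 long non-coding.

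The 4 genes below are the members with an unadjusted p under 0.05 (limma) and the same direction in both of 2 separate sets of pups, pups 26 to 33 and pups 35 to 42 (0.283% of all genes), and the stretches upstream of their starts are shown for this reason. With all pups together, Avil and Mars passed adjustment and Gm30041 and Ctdsp2 did not. Each stretch holds the 250 bases before the RefSeq start (GRCm38.p6) and is written in the direction of transcription, with matches to TATAAA or to CCAAT or to GGGCGG on either strand in capitals. The stretches lie at chr10:126093872-126094121 (plus strand), chr10:126978467-126978716 (plus strand), chr10:127000459-127000708 (plus strand) and chr10:127311787-127312036 (minus strand), and none overlaps a gene of the GENCODE annotation of this build.
Gm30041: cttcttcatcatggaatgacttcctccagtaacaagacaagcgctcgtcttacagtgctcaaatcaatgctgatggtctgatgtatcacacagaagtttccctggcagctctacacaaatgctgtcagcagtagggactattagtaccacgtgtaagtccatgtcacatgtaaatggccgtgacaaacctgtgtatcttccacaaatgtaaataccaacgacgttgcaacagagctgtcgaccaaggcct
Ctdsp2: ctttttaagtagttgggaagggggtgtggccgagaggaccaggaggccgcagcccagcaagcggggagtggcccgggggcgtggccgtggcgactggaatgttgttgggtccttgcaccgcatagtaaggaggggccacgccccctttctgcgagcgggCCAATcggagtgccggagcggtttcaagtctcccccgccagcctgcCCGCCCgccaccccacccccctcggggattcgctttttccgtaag
Avil: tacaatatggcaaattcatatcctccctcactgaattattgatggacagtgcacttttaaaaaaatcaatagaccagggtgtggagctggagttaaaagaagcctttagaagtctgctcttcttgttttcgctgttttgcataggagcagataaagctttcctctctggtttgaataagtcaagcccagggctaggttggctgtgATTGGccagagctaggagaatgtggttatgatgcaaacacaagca
Mars: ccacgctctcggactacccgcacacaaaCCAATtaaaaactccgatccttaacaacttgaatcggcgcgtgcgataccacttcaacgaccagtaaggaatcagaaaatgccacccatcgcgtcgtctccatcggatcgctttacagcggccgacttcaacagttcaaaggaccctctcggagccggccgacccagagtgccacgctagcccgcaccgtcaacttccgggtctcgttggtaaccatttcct

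The stretches differ in composition. The stretch before Ctdsp2 was 66.8% G and C with 20 CG dinucleotides, and the stretch before Mars was 55.2% with 24. The stretches before Avil (42.0%, 1 CG) and Gm30041 (45.6%, 7 CG) were poorer in both than those before Ctdsp2 and Mars. Medians over 32851 upstream stretches of the same length were 52.4% and 6. Avil lay below both medians, and Gm30041 lay below the first and above the second. CCAAT, which 33.8% of those stretches hold, was found once each before Ctdsp2, Avil and Mars, and GGGCGG, which 32.7% hold, was found before Ctdsp2 only among the 4. TATAAA, which 12.4% hold, was found in none of the 4. The deposited entry of Avil begins 634 bases before this RefSeq start, and Ctdsp2 ends 99 bases before that entry on the same strand.

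The pups had between 30549126 and 48711134 reads in genes. ChR2-flfl replicate 3 was the lowest, and the next had 47791532. Genes of cortical excitatory neurons summed to 1120 to 1234 normalized reads in ChR2-flfl and 1182 to 1260 in Avil-ChR2 cortices. The medians were 1201 and 1233 (exact permutation p = 0.0479 for the sum, unadjusted). Of these genes 6 of 6 were measured, with 1 at a limma unadjusted p under 0.05 and 0 at an adjusted p. The sums for cortical interneurons, sensory neurons of ganglia, choroid plexus, meninges and blood had an exact permutation p between 0.198 and 0.888. Among their genes, 1 of choroid plexus was at a limma unadjusted p under 0.05, beside 5.41% of all genes. Of 10 genes that mark sensory neurons of ganglia, 8 passed the limit and 0 had a p under 0.05 by limma, unadjusted or adjusted, and their summed level was 5.84 to 8.503 in ChR2-flfl and 6.50 to 7.93 in Avil-ChR2 pups. Of the 10, Prph (2.87 to 4.01 over all pups) and P2rx3 (1.24 to 2.10) were the highest, Calca had means of 0.88 and 0.814 and Scn11a of 0.501 and 0.548 in ChR2-flfl and Avil-ChR2 pups, and the means of the other 6 lay between 0.0356 and 0.425. None of the 10 was at 0 in every pup. In the cortex, fewer cells of a type and less RNA per cell cannot be told apart. Pup numbers form separate runs, from 26 to 33 and from 35 to 42, and either run holds 4 Avil-ChR2 and 4 ChR2-flfl animals. The Y-linked gene Ddx3y was at 54.7 normalized reads in Avil-ChR2 replicate 4, whose label says female, and at 1.71 to 2.57 in the other pups labelled female.

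Avil, on the plus strand from 127000075 to 127020994, was read 36 to 71 times in each ChR2-flfl and 1785 to 2264 times in each Avil-ChR2 pup. In ChR2-flfl pups it was at 0.825 normalized reads in the lowest, 1.06 in the median and 1.46 in the highest, and in Avil-ChR2 pups at 37.3, 38.6 and 46.4. The genotypes were far apart, and the levels of the Avil-ChR2 pups lay close together except for replicate 7, the highest. Means were 1.07 ± 0.199 and 39.7 ± 2.89 (SD, n = 8 each), a log2 difference of 5.23 with a standard error (SE) of 0.091 (limma adjusted p = 4.17e-19, exact permutation p = 0.000155, the smallest that 12870 splits can give). Reads were totalled per gene, so that transcripts of the native gene and any made by the driver allele cannot be told apart.

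**Figure D1:**
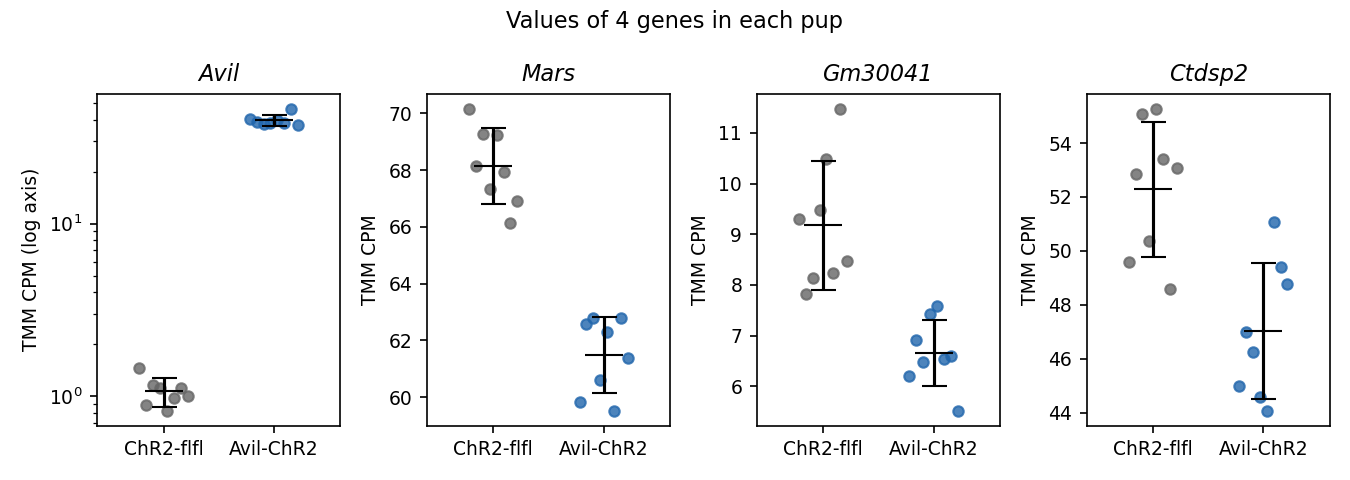
Normalized reads (TMM CPM) of Avil, Mars, Gm30041 and Ctdsp2 in each pup, 8 per genotype, with mean and SD as black lines. Avil has a log axis and the other axes do not start at 0, and only the groups of Ctdsp2 overlap.

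Of the 100 members, 2 had an adjusted p under 0.05 (limma, Benjamini-Hochberg over all genes), 1 higher and 1 lower (0.00472% of all genes in either direction), and these are the only 2 such genes of all 21183 (0.00944%). At an unadjusted p under 0.05 there were 13 members, 5 higher and 8 lower, beside 5.41% of all genes (1.95% higher and 3.46% lower) and 4.30% of the 907 other genes of chromosome 10. Of the 29 genes in the flanks, with starts between 121 and 125 Mb or above 129 Mb, 2 were under that limit. The 3 smallest p-values of all genes belonged to Avil, Mars and Gm30041. The Avil-ChR2 range lay wholly above that of ChR2-flfl for 1 member and wholly below it for 2, beside 0.0142% of all genes in either direction. The median log2 difference of the members was 0.00, as it was over all genes, with 55 members above and 45 below 0, beside 51.4% of all genes above 0.

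Mars (Mars1), on the minus strand from 127296221 to 127311786, encodes the enzyme that loads methionine onto its tRNA. It was at 66.1, 68.0 and 70.2 normalized reads in the lowest, median and highest ChR2-flfl pup and at 59.5, 61.8 and 62.8 in Avil-ChR2 pups. The groups did not overlap, the highest Avil-ChR2 pup being below the lowest ChR2-flfl pup. The log2 difference of -0.15 (SE 0.022, limma adjusted p = 0.0215, exact permutation p = 0.000155) is a decrease of 9.78%, with a 95% interval from -12.7% to -6.81%. The call was lost with another scaling, where each pup was centred on its median (adjusted p = 0.125 by limma). The call was also lost when any of 10 of the 16 pups was left out, with an adjusted p between 0.0536 and 0.0845 (limma). With each pup left out in turn, the log2 difference stayed between -0.15 and -0.14. Ddit3, which encodes the stress-induced transcription factor CHOP, shares its last bases with the end of Mars on the opposite strand over 68 bp. Ddit3 was at 11.2 ± 0.521 in ChR2-flfl and 11.1 ± 0.516 in Avil-ChR2 cortices (SD, n = 8), a log2 difference of -0.02 (95% interval -0.10 to 0.07). The libraries were made with a stranded kit, but it is not stated whether strand was used in counting. Reads within the shared bases may have gone to either gene.

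Gm30041, a long non-coding RNA on the plus strand from 126094123 to 126138321, starts 906.0 kb before Avil. It was at 7.82, 8.88 and 11.5 normalized reads in the lowest, median and highest ChR2-flfl pup and at 5.52, 6.57 and 7.58 in Avil-ChR2 pups. Every Avil-ChR2 pup was below every ChR2-flfl pup. Means were 9.18 ± 1.28 and 6.66 ± 0.660 (SD, n = 8), a log2 difference of -0.46 (SE 0.080, exact permutation p = 0.000155), and the adjusted p of limma was 0.108, so that it missed the threshold. With the pup number run as a covariate, its adjusted p was 0.0220, and over all alternatives the adjusted p was between 0.0220 and 0.962.

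Ctdsp2, which encodes a phosphatase of the C-terminal domain of RNA polymerase II, lies directly before Avil on the same strand, from 126978717 to 126999975. It was at 48.6, 53.0 and 55.3 normalized reads in the lowest, median and highest ChR2-flfl pup and at 44.1, 46.6 and 51.1 in Avil-ChR2 pups. The groups overlapped, and 8 of 8 Avil-ChR2 values lay under the mean of ChR2-flfl. The log2 difference was -0.15 (SE 0.036, exact permutation p = 0.00202, limma adjusted p = 0.691), with the 11th smallest p of all genes. Over all alternatives its adjusted p was between 0.334 and 1.

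The separate runs of pup numbers gave 2 readings of each difference in different animals. In pups 26 to 33, 8 members had an unadjusted p under 0.05, beside 3.17% of all genes. Of these 8, 4 (50%) also had an unadjusted p under 0.05 in the same direction in pups 35 to 42, namely Gm30041, Ctdsp2, Avil and Mars. Over all genes this held for 60 of 672 (8.93%), which are 0.283% of all genes tested. In the reverse order, with 5.47% of all genes under the limit in pups 35 to 42, it held for 4 of 12 members and for 60 of 1159 genes (5.18%). Outside the members, 56 genes were under the limit in both runs.

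These 4 genes were chosen for their p in both runs, so that their values by run are a description. The log2 difference of Gm30041 was -0.47 in the first and -0.45 in the second run, with means of 8.54 against 6.19 and of 9.81 against 7.13 normalized reads. For Ctdsp2 it was -0.14 and -0.16, for Mars -0.17 and -0.13, and for Avil 5.08 and 5.38. Neither run alone gave an adjusted p under 0.05 to any member other than Avil.

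**Figure D2:**
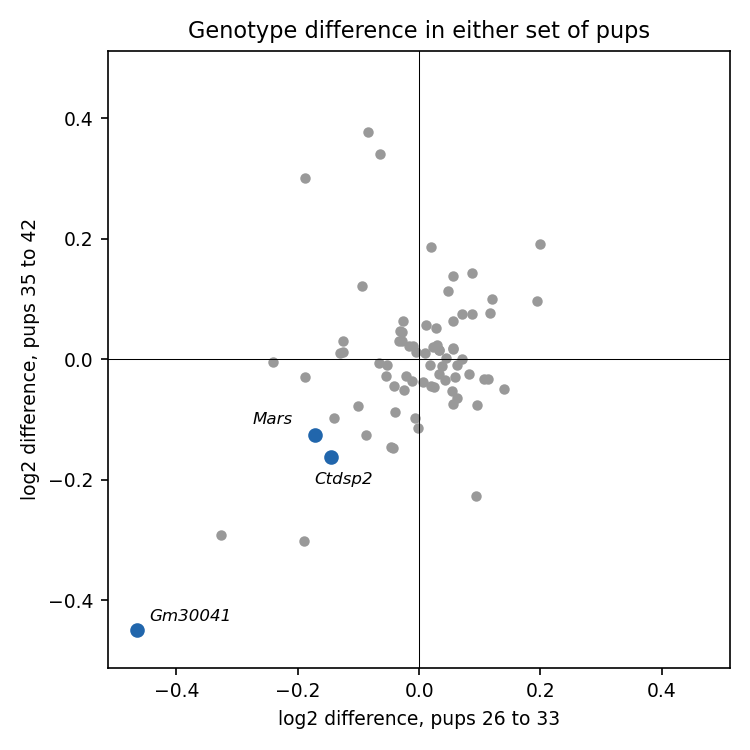
Log2 difference (Avil-ChR2 minus ChR2-flfl) of 77 members other than Avil whose mean log2 value reached 0, for pups 26 to 33 on the x axis and pups 35 to 42 on the y axis, 4 pups per genotype in each. Gm30041, Ctdsp2 and Mars (blue) lie at the lower left, at -0.47 and -0.45, -0.14 and -0.16, and -0.17 and -0.13.

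The nearest neighbours of Avil were next examined. Of the 14 other members that start within 100 kb, 5 were above and 9 below 0, beside 51.4% of all genes above 0. Of these 14, 1 (Ctdsp2) had an unadjusted p under 0.05, beside 5.41% of all genes. Before Avil lie Xrcc6bp1 (Atp23, a peptidase of mitochondria), with a log2 difference of -0.06 (SE 0.061), and 3 entries of fewer than 1 normalized read. They are the non-coding Gm30539 at -0.05 (SE 0.20) and LOC105245323 at -0.33 (SE 0.44), and Gm30595 at 0.47 (SE 0.34), which had no RefSeq entry. These 3 had wide errors and no p under 0.05. The non-coding 4930484H19Rik, 180.4 kb before Avil, was at 0.234 ± 0.0944 in ChR2-flfl and 0.317 ± 0.0722 in Avil-ChR2 cortices (log2 difference 0.51, SE 0.25).

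After Avil follows Tsfm, the mitochondrial translation elongation factor, whose entry ends 1337 bases from that of Avil on the opposite strand, although 1 GENCODE transcript of Tsfm reaches into the range of Avil. It was at 11.0, 12.4 and 14.04 normalized reads in the lowest, median and highest ChR2-flfl pup and at 10.7, 12.4 and 12.9 in Avil-ChR2 pups. The groups overlapped, and the log2 difference of -0.01 had a 95% interval from -0.12 to 0.10, against 5.23 for Avil. The methyltransferase genes Mettl21b (Eef1akmt3, acting on an elongation factor) and Mettl1 (acting on tRNA) had log2 differences of 0.09 (SE 0.38) and 0.12 (SE 0.059). For Mettl1, 7 of 8 Avil-ChR2 values exceeded the ChR2-flfl mean of 9.78 normalized reads, and its p was 0.0629 (limma, unadjusted). Cyp27b1, which makes the active form of vitamin D, was at -0.31 (SE 0.18) with fewer than 1 normalized read in the mean of either genotype.

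Around Cdk4, log2 differences lay between -0.05 and 0.15. Cdk4, the kinase that drives cells through G1, was at 57.6 to 65.7 normalized reads in ChR2-flfl and 57.1 to 65.4 in Avil-ChR2 pups, ranges that nearly coincide. Its log2 difference was -0.02 (95% interval -0.10 to 0.05). The ubiquitin ligase March9 (Marchf9) was at -0.02 (SE 0.059), the tetraspanin Tspan31 at 0.01 (SE 0.033), the non-coding A730063M14Rik at 0.15 (SE 0.11) and Agap2, a GTPase-activating protein abundant in brain, at -0.05 (SE 0.048). From 100 to 200 kb after Avil lie Os9, the ganglioside synthase gene B4galnt1 (0.02, SE 0.043), Slc26a10 (-0.06, SE 0.091), the exchange factor gene Arhgef25 (0.04, SE 0.038) and the ubiquitin ligase gene Dtx3 (0.03, SE 0.035). Of these, Os9 alone had an unadjusted p under 0.05, beside 5.41% of all genes.

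**Figure D3:**
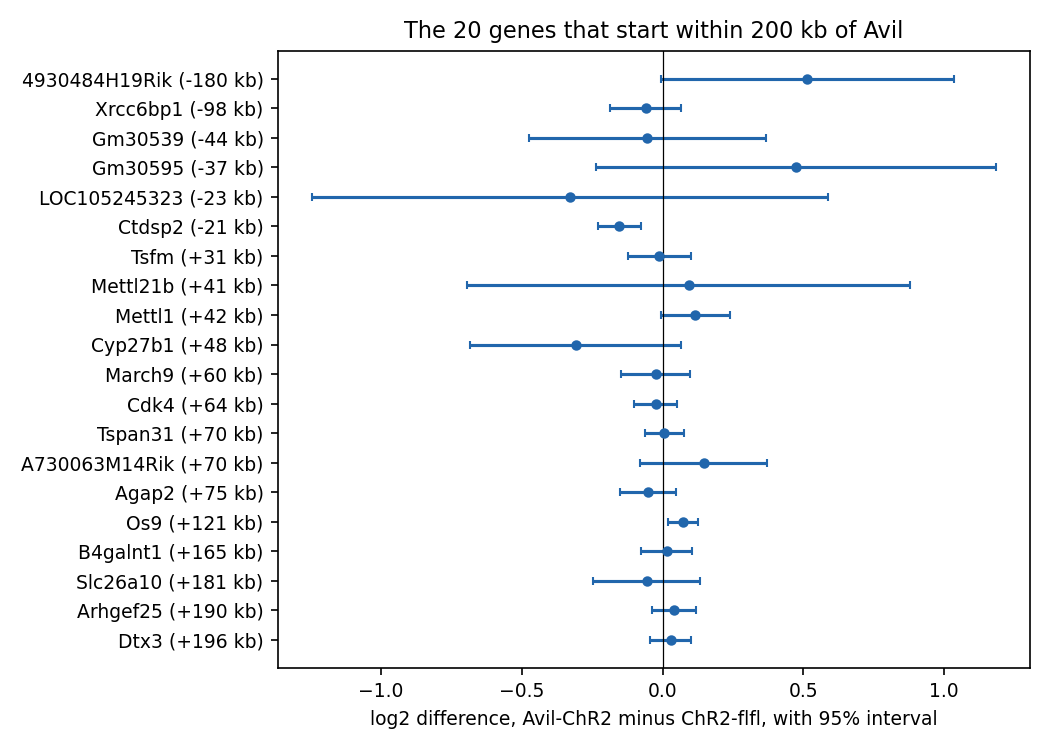
Log2 difference (Avil-ChR2 minus ChR2-flfl, x axis) with 95% interval for the 20 members that start within 200 kb of Avil, ordered by distance (kb beside each name). The intervals of Ctdsp2 and Os9 do not reach 0, and the wide intervals belong to entries of low values.

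The remaining members at an unadjusted p under 0.05 did not pass adjustment and are given as values only. Their adjusted p was at least 0.813 in the comparison of all 16 pups. Os9, a lectin of the endoplasmic reticulum that takes misfolded proteins to degradation, was at 121 ± 4.60 in ChR2-flfl and 127 ± 3.23 in Avil-ChR2 cortices (SD, n = 8), a log2 difference of 0.07. The phosphoinositide kinase gene Pip4k2c had 0.10 and Wibg (Pym1, which recycles the exon junction complex) also had 0.10. Os9, Pip4k2c and Wibg differed by 5.14% to 6.99%.

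Lrp1, an endocytic receptor of the LDL receptor family, was read at least 12669 times in every pup. It was at 410, 513 and 711 normalized reads in the lowest, median and highest ChR2-flfl pup and at 358, 435 and 492 in Avil-ChR2 pups. The groups overlapped, and ChR2-flfl replicate 1 was highest. The log2 difference was -0.25 (SE 0.089), and the values in the runs were -0.19 and -0.30. Stac3, known from excitation-contraction coupling of muscle, had a log2 difference of -0.31 (SE 0.10), and Gdf11, a growth factor of the TGF-beta family, had -0.11 (SE 0.051).

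Entries with few reads complete this group. Rdh9, a retinol dehydrogenase, was read 15 to 42 times per ChR2-flfl and 13 to 35 times per Avil-ChR2 pup (log2 difference -0.63, SE 0.22). Inhbe, a subunit of activin, was read 2 to 9 times and 0 to 6 times (-0.94, SE 0.38). Mip, the water channel of the lens, was read 2 to 7 times and 3 to 11 times (0.86, SE 0.32). For Inhbe and Mip, single reads decide the values at this depth.

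The members were also read by function, beside shares over all genes of 51.4% above 0 and, at an unadjusted p under 0.05, 1.95% higher and 3.46% lower. Of the 10 tRNA and translation genes, 6 were above and 4 below 0, with Mars as the only gene past adjustment and Wibg at an unadjusted p under 0.05. Among them, the ribosomal protein gene Rpl41 was at -0.03 (SE 0.042) and Pa2g4, which binds ribosomes, at 0.02 (SE 0.029). The log2 differences of the list without Mars were between -0.04 and 0.12. Of the 8 genes of mitochondria and metabolism, 6 were above 0, and 0 were at a p under 0.05, unadjusted or adjusted. Atp5b, a subunit of ATP synthase, was at 0.01 (SE 0.025), citrate synthase Cs at 0.03 (SE 0.026) and Coq10a, which serves ubiquinone, at 0.06 (SE 0.045).

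Of the 9 genes of cell cycle and DNA, 4 were above and 5 below 0, with Ctdsp2 as the gene at an unadjusted p under 0.05. Of 13 genes of neuronal transport and membranes, 10 were above 0, with 2 higher (Os9 and Pip4k2c) and 1 lower (Lrp1) at an unadjusted p under 0.05. Kif5a, the neuronal kinesin, was at 1048 ± 31.3 in ChR2-flfl and 1040 ± 34.6 in Avil-ChR2 cortices (SD, n = 8), a log2 difference of -0.01. The 14 transcription and chromatin genes had 7 above and 7 below 0 and 0 at a p under 0.05, with Smarcc2 of the BAF complex and R3hdm2 at 0.00 and Ankrd52 at -0.04. The list of retinol and steroid dehydrogenases also holds Cyp27b1, a hydroxylase. Its 4 measured retinol dehydrogenases were all below 0, beside 48.6% of all genes, with log2 differences between -0.73 and -0.08, and 1 (Rdh9) had an unadjusted p under 0.05. Their means were at most 1.63 normalized reads, and Rdh5, the member with the most reads, was at -0.09 (SE 0.099). Rdh1, read 4 to 13 times per ChR2-flfl and 2 to 13 times per Avil-ChR2 pup, had means of 0.1455 and 0.147 normalized reads. Only its mean log2 value was lower (-0.08, SE 0.36). In the window, 5 more genes of that list did not pass the limit on low values.

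**Figure D4:**
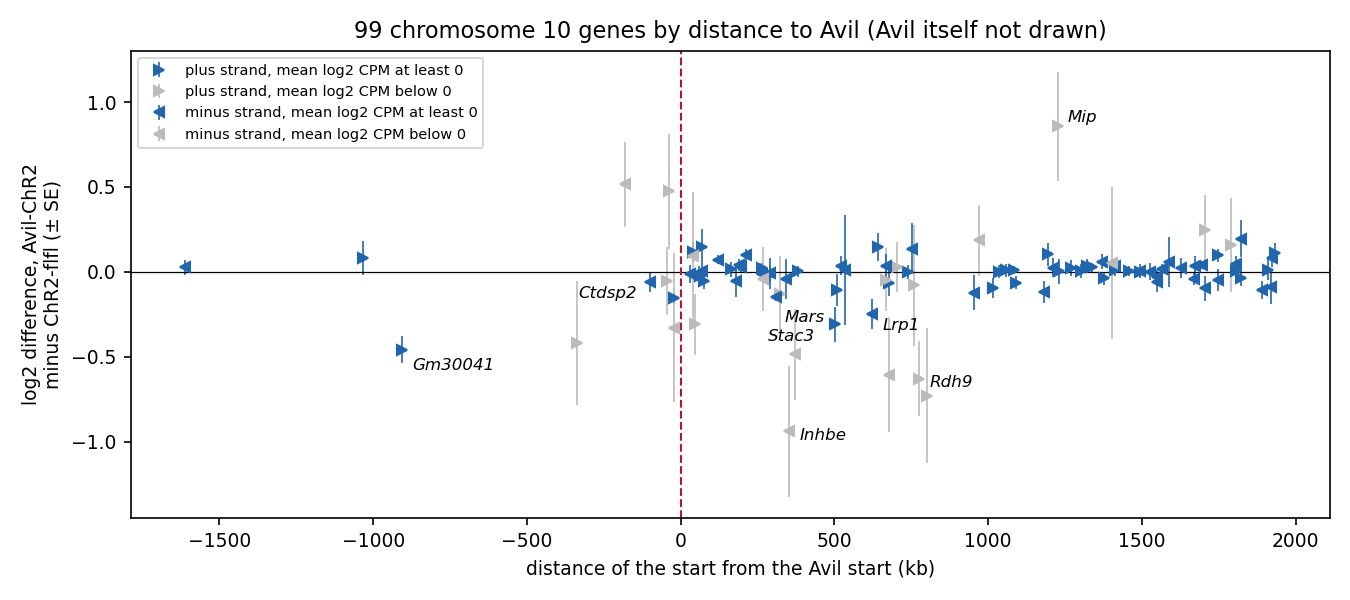
Log2 difference (Avil-ChR2 minus ChR2-flfl, y axis, bars are SE) of 99 members against the distance of their start from that of Avil (x axis, kb, dashed line at Avil), with triangles pointing along the strand and members of a mean log2 value below 0 in grey. The larger differences belong to grey members with wide errors, and Gm30041, Mars and Ctdsp2 have short bars.

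The differences were then read by distance to Avil. Among members other than Avil whose mean log2 value reached 0, the median absolute log2 difference was 0.05 for the 9 within 100 kb, 0.03 for the 13 from 100 to 500 kb, 0.12 for the 12 from 500 kb to 1 Mb and 0.04 for the 43 beyond 1 Mb, beside 0.04 over the 15137 such genes in all. Members at an unadjusted p under 0.05 were 1 of 14, 4 of 19, 4 of 19 and 3 of 47 in these bins when all values are counted, beside 5.41% of all genes. Across the 77 members, Spearman's rank correlation between distance and absolute log2 difference was -0.04 and Pearson's r was -0.09, and across all 99 members other than Avil they were -0.15 and -0.19, which describes genes of the same 16 libraries and not independent replicates. In the bin beyond 1 Mb, 34 of 47 members were above 0, beside 51.4% of all genes. Their median was 0.01, beside 0.00 over all genes.

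Members were also divided by strand and by overlap with neighbours. Of 50 members on the plus strand, 7 had an unadjusted p under 0.05, and of 50 on the minus strand 6 did, beside 5.41% of all genes here and in the counts that follow. Among 41 members that share bases with any other entry of the table, 6 were under this limit, and among 59 that share none, 7 were. Of 26 members that overlap another member on the opposite strand, 2 were, namely Mars and Wibg, whose entry shares 542 bp with that of Dgka. Before Avil lie 10 members, with 2 at an unadjusted p under 0.05 (Gm30041 and Ctdsp2), and after it 89, with 10.

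Genotype differences were compared between sexes with an interaction term. By limma 0 members had an adjusted p under 0.05 with the sexes of the labels, and 8 were under 0.05 without adjustment, beside 4.31% of all genes. The study lists the Avil-ChR2 pup with the high Ddx3y level as a male. With this pup taken as male, 0 members passed adjustment and 9 were under 0.05 without it, beside 6.23% of all genes. With the label sexes, the log2 difference of Gm30041 was -0.29 in females and -0.63 in males (limma adjusted p = 0.993), and with the pup taken as male it was -0.22 and -0.69 (adjusted p = 0.794). That of Lrp1 was -0.04 in females and -0.48 in males with the label sexes (limma adjusted p = 0.993), and -0.02 and -0.47 with the pup taken as male (adjusted p = 0.794). That of Mars was -0.15 in females and -0.14 in males with the label sexes, less apart than its SE of 0.048. ChR2-flfl pups were 3 females and 1 male in the first run and 1 female and 3 males in the second, so that sex and run are not balanced in the controls. With the pup taken as male, Avil-ChR2 pups were 2 females and 2 males in either run. With the label sexes, sex and run were not balanced in Avil-ChR2 pups either.

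The 46 entries of the window that did not pass the limit add little. For 21 of them no pup had a read, and 0 had an Avil-ChR2 range wholly above or below that of ChR2-flfl. Apart from F420014N23Rik, which shares bases with Dtx3 and Pip4k2c, no value exceeded 0.184 normalized reads.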

How the data were processed

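Cortical mRNA of 16 pups was sequenced from stranded Illumina TruSeq libraries, 1 library per pup. Per the labels and the methods of the study, the authors trimmed the reads, aligned them to mm10 (GRCm38) with SeqMan NGen, counted them per gene in ArrayStar and scaled them with edgeR's TMM factors, and the deposited values are linear CPM, 1 column per pup, with no value where no read was found. In each pup 100% of the values examined (23055 to 23950, up to 20000 reads) were whole multiples of the step of the low values to within 0.05 of a step, and read numbers given here are values divided by that step. All 16 columns were used. Litters were not used, since no label names them.

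Values were log2 transformed without a pseudocount, missing values and values below -5 were set to -5 (11 of 1600 member values), and genes with at least 12 of 16 pups above -5 were kept (21183 of 36930 entries). A linear model per gene was fitted with limma 3.58.1 (R 4.3.3), with eBayes moderation that follows mean intensity, and p-values were adjusted after Benjamini and Hochberg over the 21183 genes. The exact permutation p of a single gene is two-sided, unadjusted and counts all 12870 ways to divide the pups into groups of 8. A positive log2 difference means a higher value in Avil-ChR2 pups. The code was tested on simulated data. Promoter sequences came from RefSeq GRCm38.p6, the build of the deposited coordinates, and were found for 77 of the 100 members, and annotation came from GENCODE vM21. P-values set the difference between genotypes against the spread between these 8 pups per genotype. Pups were treated as independent, and any litter that they shared was not modelled.

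The members, the gene lists and the rules were chosen with earlier results of these data known. The genes named are all members that start within 200 kb of Avil, those with an adjusted p under 0.05, the 15 with the smallest p, members that overlap Avil or a called member, and the 3 members with the most reads of each function list. The analysis was repeated under other filters, scalings, covariates, runs of pup numbers and with each pup left out.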

Additional observations from a re-analysis of the deposited data

Results flagged for a closer look

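In 6 of 84 groups of 8 pups (42 named members, each genotype), the highest or lowest pup was separated from the next by a gap, as a share of the whole range on the log2 scale, above Dixon's 95% critical value for 8 values, where chance gives about 1 in 20. Avil was at 46.4 normalized reads in Avil-ChR2 replicate 7 and at a median of 38.3 in the other 7 Avil-ChR2 pups (gap 0.622). Tsfm, the next gene, was lowest in Avil-ChR2 replicate 6, at 10.7 against a median of 12.5 (gap 0.691). Dtx3 was highest in ChR2-flfl replicate 5, at 144.7 against 126.7 (gap 0.579), and Atp5b was lowest in Avil-ChR2 replicate 8, at 814 against 868 (gap 0.618). The low entries Gm30539 in Avil-ChR2 replicate 4 (0.272 against 0.70, gap 0.555) and LOC105245323 in ChR2-flfl replicate 3 (at the floor of 0.03125 against 0.186, gap 0.636) were lowest in their groups. The 6 flags fell on 6 different pups.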

How the results depend on the processing

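The Avil difference kept its direction and an adjusted p under 0.05 in all 28 alternatives (log2 4.30 to 5.38). The Mars difference kept its direction in all 28 (-0.17 to -0.13) and an adjusted p under 0.05 in 14. Its adjusted p was 0.125 with median centring (log2 -0.15), 1.00 in pups 26 to 33 only (-0.17), 0.884 in pups 35 to 42 only (-0.13) and 0.506 with the replicate block (-0.15). With single pups left out, the log2 difference of Mars was -0.15 to -0.14 and its adjusted p 0.0218 to 0.0845, not under 0.05 without ChR2-flfl replicates 1, 2, 3, 5, 6 or 8 or Avil-ChR2 replicates 1, 2, 4 or 8. The members with an adjusted p under 0.05 were therefore 1 in each run alone, with median centring and with the replicate block, and 1 to 2 with a pup left out. They were 3 with the run as a covariate, where 1 further named member (Gm30041) passed and all 3 genes so called of the whole table were members. Members at an unadjusted p under 0.05 were 8 in pups 26 to 33 only, 12 to 18 with a pup left out and 10 to 14 otherwise, where all such genes were 672, 929 to 1581 and 872 to 1396. The 18 members and 1581 genes came without ChR2-flfl replicate 2. The replicate numbers did not pair the pups: same-numbered pups correlated at -0.07 to 0.13, and 1 of 8 pups correlated best with its own number. The block moved the members' count at an unadjusted p from 13 to 14. Of 1111 values of 40 other named members, 32 moved by more than 1 SE and 43 changed sign, with no change of sign among the 13 others of the 15 members with the smallest p. The count test on recovered reads was not run. Pups per genotype and run (4) limit what the separate runs can show, and entries of few reads limit the retinol dehydrogenases, Inhbe and Mip.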
